A study of Homo sapiens with 11 samples.

Results

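The step from 6 h to 12 h of hypoxia was examined in RWPE1, an immortalized and non-tumorigenic line of human prostate epithelial cells. It takes in 6 of the 11 libraries of the series, the 3 that the labels place at 6 h in 1% oxygen and the 3 they place at 12 h, and all genes. Both times are hypoxic, so the comparison sets a longer hypoxia against a shorter one and does not measure the response to lost oxygen itself. The labels name no genetic change in any library, and all 6 received 10 mM HEPES buffer with the low oxygen, in serum-free keratinocyte medium with EGF and bovine pituitary extract. The other 5 libraries, 3 from normoxia (0 h, untreated, without the added buffer) and 2 from 24 h in 1% oxygen, entered the fit and are given as levels for context. The series has no normoxic library at 6 h or 12 h. Longer hypoxia therefore cannot be told apart from longer time in culture or in the added buffer. RWPE1 is 1 line, and the labels do not say that the replicates were separate cultures, so p-values measure the spread between these libraries, which may be technical.

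When oxygen falls, prolyl hydroxylases stop marking the alpha subunits of the hypoxia-inducible factors (HIFs) for VHL, the subunits accumulate, and HIFs switch on glycolytic enzymes, glucose transporters and the hydroxylases that later restrain them. Alongside HIF, low oxygen engages the integrated stress response, in which phosphorylated eIF2 alpha slows translation and favours ATF4, and changes the use of glucose, which is read by the MLX partner factors MondoA and ChREBP through targets such as TXNIP. RWPE1 cells keep a basal epithelial program with p63 and basal keratins, and they depend on EGF for growth.

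Total counts ran from 27925012 to 49488345 per library at 6 h and from 32508946 to 46819348 at 12 h, the deepest being replicate 3 at both times. Of 60676 genes, 19981 had enough counts to be tested. Values are in CPM, the usual unit of counts relative to library size, after scaling by TMM, a normalization that assumes most genes do not change. Differences were tested gene by gene with the quasi-likelihood test of edgeR, and p-values were adjusted by the method of Benjamini and Hochberg over the whole table. Genes under 0.05 are referred to as called, and the value is given as the edgeR adjusted p. All 9 prostate epithelial markers were tested, with a summed level of 13260 to 19610 CPM at 6 h and 20520 to 23000 CPM at 12 h. Of 7 fibroblast markers only COL1A1 was tested, at 31.2 to 46.2 CPM, while DCN had 0 counts in all 6 libraries and COL3A1 and LUM had at most 2 and 1. Of 7 immune markers 2 were tested, led by CD14 at 1.67 to 3.01 CPM, and of 6 endothelial markers none.

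At 12 h, 989 genes differed from 6 h (4.95% of those tested), of which 376 were higher (1.88%) and 613 lower (3.07%). A further measure with no test was whether the 3 libraries of one time lay wholly above the 3 of the other. That held for 3182 genes in the higher direction (15.9%) and 3140 in the lower (15.7%). The log2 fold change was positive in 10040 tested genes and negative in 9941. Of the called genes 190 had a log2 fold change over 1 and 199 one under -1. In these bulk libraries, a change in the number of cells that make a transcript and a change in the amount per cell cannot be told apart. The number of calls depended on single libraries. Leaving out 12 h replicate 3 reduced it to 61, and leaving out 12 h replicate 2 reduced it to 125. Omitting 6 h replicate 2 gave 151 and omitting 6 h replicate 1 gave 242. With 12 h replicate 1 set aside there were 627, and with normoxia replicates 1, 2 and 3 set aside 433, 490 and 432. Without 6 h replicate 3 the number stayed near that of the full fit, at 1003, of which 721 were called in both. It rose to 3621 and 3649 without 24 h replicates 1 and 2, libraries whose spread enters the shared error estimate. Only 57 genes, 24 higher and 33 lower, were called in the full fit and in each of the 11 fits that left out 1 library (0.285%). The genes described first were taken by a rule from those that have a symbol, average 1 CPM or more, do not overlap between the times and were called in every one of these fits, 23 higher and 30 lower. The 12 highest and the 12 lowest log2 fold changes among them are given, so being called in every fit chose these genes and is no finding about them. Called genes that lost their call in some fit were passed over even where their change was as large, PTGS2, SNHG20 and MIR23AHG among them. Scaling by library size alone moved the median of all genes to -0.15 on the log2 scale, from 0.00 with TMM, and left 690 calls with 14.3% higher, against 38% with TMM. Directions here are therefore relative to the TMM scale.

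**Figure D1:**
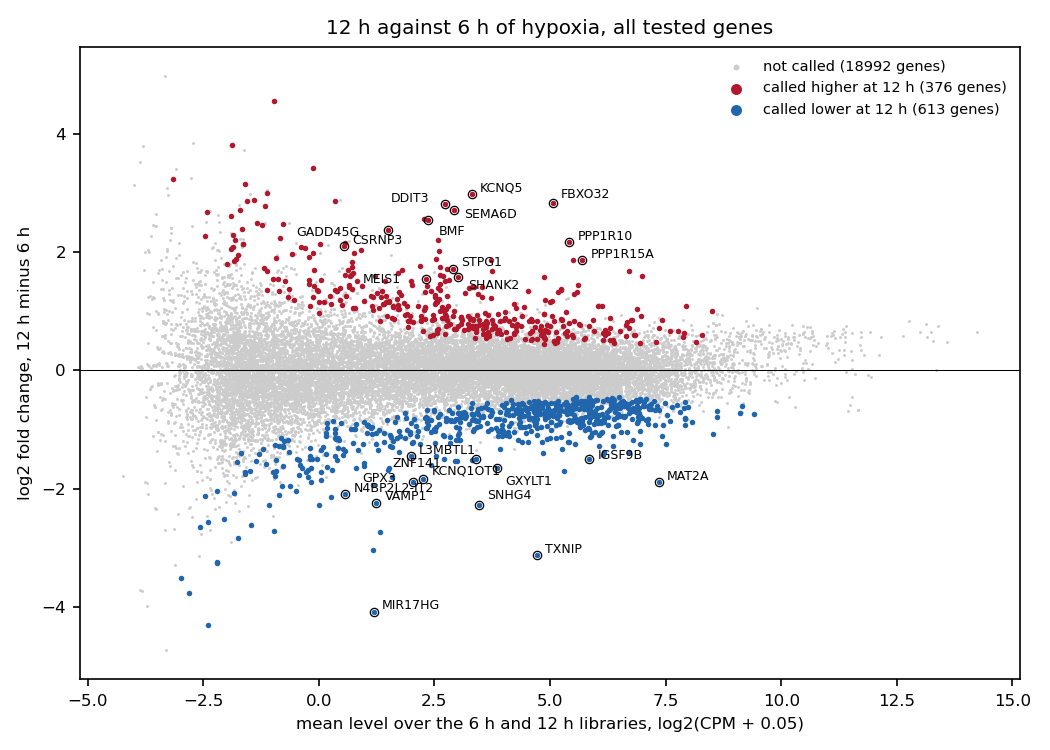
Log2 fold change of 12 h against 6 h (vertical axis) over the mean level of the 6 libraries, log2(CPM + 0.05) (horizontal axis), 1 point per tested gene. Grey points are genes not called, red points the 376 called higher and blue points the 613 called lower. Circles name the 12 highest and 12 lowest genes among those called in every fit, as the naming rule took them. TXNIP and MAT2A stand out below the cloud at levels where few other genes moved as far.

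The lowest changes included glucose-responsive TXNIP and the primary transcript of the miR-17 cluster, and both carry sequence that helps to place them. MIR17HG (chr13:91347686-91397592, GRCh38, plus strand, a long non-coding RNA gene) holds 6 miRNA hairpins. Their main mature products are shown because 1 transcript supplies 4 seed families, with the seed (bases 2 to 8) in capitals, as RefSeq gives them on GRCh38.p14.
hsa-miR-17-5p: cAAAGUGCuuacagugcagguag
hsa-miR-20a-5p: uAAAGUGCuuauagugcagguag
hsa-miR-18a-5p: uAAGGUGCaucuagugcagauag
hsa-miR-19a-3p: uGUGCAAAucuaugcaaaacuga
hsa-miR-19b-3p: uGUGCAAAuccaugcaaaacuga
hsa-miR-92a-3p: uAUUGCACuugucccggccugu
The first pair shares the seed AAAGUGC, miR-18a-5p differs from it within the seed, miR-19a-3p and miR-19b-3p share GUGCAAA, and miR-92a-3p stands alone with AUUGCAC. The 3 hairpin genes of the miR-200 family on chromosome 1, epithelial miRNAs that restrain ZEB1 and ZEB2, are shown because all 3 were called lower.
hsa-miR-200b-3p: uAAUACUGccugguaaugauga
hsa-miR-429: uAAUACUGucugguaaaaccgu
hsa-miR-200a-3p: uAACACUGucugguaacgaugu
The first pair has the seed AAUACUG and miR-200a-3p has AACACUG. MIR23AHG on chromosome 19 holds 3 hairpins with 3 different seeds.
hsa-miR-23a-3p: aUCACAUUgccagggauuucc
hsa-miR-27a-3p: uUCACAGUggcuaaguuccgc
hsa-miR-24-3p: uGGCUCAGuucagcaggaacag
Mature miRNAs were not measured, since RNA over 200 nucleotides was sequenced, and the values given for these genes count reads of longer transcripts.

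TXNIP and ARRDC4 are both alpha-arrestins and known targets of MondoA and ChREBP. The 250 bases before each start are shown from RefSeq on GRCh38.p14, TXNIP at chr1:145996580-145996829 on the minus strand with a match to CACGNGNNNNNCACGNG in capitals, and ARRDC4 at chr15:97960453-97960702 on the plus strand with CACGTG in capitals.
TXNIP: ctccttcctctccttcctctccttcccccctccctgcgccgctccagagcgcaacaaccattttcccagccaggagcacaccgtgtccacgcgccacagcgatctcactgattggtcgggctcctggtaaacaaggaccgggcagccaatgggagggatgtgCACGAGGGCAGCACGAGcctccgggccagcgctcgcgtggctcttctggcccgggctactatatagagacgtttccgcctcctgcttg
ARRDC4: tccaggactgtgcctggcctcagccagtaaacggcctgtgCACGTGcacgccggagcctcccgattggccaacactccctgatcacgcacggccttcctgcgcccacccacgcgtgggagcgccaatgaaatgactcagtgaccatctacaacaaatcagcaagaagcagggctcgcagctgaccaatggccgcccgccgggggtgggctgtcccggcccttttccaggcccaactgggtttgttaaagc
The longer motif, a spaced pair of boxes as carbohydrate response elements have, was searched on both strands and occurred in 16 of 35116 promoter windows of the same length (0.0456%). The match before TXNIP lies 88 to 72 bases upstream of the start. CACGTG, which also reads the same on both strands, occurred in 2228 windows (6.34%), and ARRDC4 holds it 210 to 205 bases upstream. In the second promoter window that RefSeq lists for TXNIP the longer motif was not found. ARRDC4 did not hold the longer motif, and neither window of TXNIP held CACGTG. Among 15 listed genes of the MYC, MAX and MLX network, TXNIP alone held the longer motif. CACGTG was found in MXD4, MNT, MLX and ARRDC4.

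TXNIP, which binds thioredoxin and curbs glucose uptake, stood at 56.9, 53.8 and 30.2 CPM at 6 h and 6.22, 5.33 and 4.64 CPM at 12 h. All 3 libraries at 6 h lay far above all 3 at 12 h, the third 6 h library being the lowest of its group. The log2 fold change was -3.12 (SE 0.24, edgeR adjusted p = 0.000112). At 0 h its level was 5.57, 4.18 and 4.57 CPM and at 24 h 4.71 and 5.34 CPM, so its high level was seen at 6 h and not at the other times. ARRDC4 went from 36.7, 31.9 and 31.4 CPM to 21.9, 17.7 and 17.4 CPM, with no overlap, a change of -0.81 (SE 0.14, edgeR adjusted p = 0.00971). MLXIP, which encodes MondoA, went from 136, 169 and 123 CPM to 79.9, 90.5 and 94 CPM, a change of -0.70 (SE 0.17, edgeR adjusted p = 0.038). ARRDC3, another alpha-arrestin, moved the other way without overlap, from 99.5, 78.5 and 82 CPM to 132, 174 and 187 CPM, a change of 0.92 (SE 0.18, edgeR adjusted p = 0.0169). These 4 were the called genes among 16 of the MYC, MAX and MLX network, 1 higher and 3 lower (1.88% and 3.07% over all genes). The list median was -0.22 on the log2 scale against 0.00 over all genes. The highest log2 fold change in the list, 3.72, belonged to a member that was not called. ARRDC4 lost its call without 12 h replicates 2 or 3, ARRDC3 also without 6 h replicate 2, and MLXIP without any normoxic library, 6 h replicate 1 or 2, or any 12 h library, with a highest edgeR adjusted p of 0.154.

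MYC itself, the growth-promoting partner of MAX, stood at 269, 228 and 414 CPM at 6 h and 273, 191 and 240.4 CPM at 12 h. The groups overlapped, with 6 h replicate 3 above the rest, and the change of -0.37 (SE 0.22, edgeR adjusted p = 0.365) was not called.

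MAT2A (chr2:85539168-85545281, plus strand), the enzyme that makes S-adenosylmethionine, was the most abundant of the 12 lower genes that the rule took. Its levels were 254, 237 and 278 CPM at 6 h and 89.3, 53.1 and 66.4 CPM at 12 h. The lowest library at 6 h was well above the highest at 12 h. The log2 fold change was -1.88 (SE 0.18, edgeR adjusted p = 0.00066), and the level at 0 h was 157, 133 and 156 CPM. All 3 libraries at 12 h also lay under those at 0 h, a difference not tested here. GPX3, a secreted glutathione peroxidase, went from 5.54, 8.11 and 5.36 CPM to 2.20, 1.84 and 1.12 CPM, a change of -1.89 (SE 0.27, edgeR adjusted p = 0.00554). IGSF9B, an adhesion protein of the immunoglobulin superfamily, went from 96.2, 99.1 and 58.7 CPM to 32, 27 and 30.7 CPM, a change of -1.50 (SE 0.20, edgeR adjusted p = 0.00395). GXYLT1, a xylosyltransferase that extends sugars on Notch, went from 26.5, 21.4 and 17.3 CPM to 7.27, 5.99 and 7.45 CPM, a change of -1.65 (SE 0.20, edgeR adjusted p = 0.003). In each of these 3 the groups did not overlap, and in IGSF9B the third 6 h library lay well below the other 2.

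VAMP1, a SNARE protein of vesicle fusion, went from 4.78, 4.22 and 2.46 CPM to 0.643, 0.859 and 0.891 CPM, a change of -2.23 (SE 0.28, edgeR adjusted p = 0.00381). L3MBTL1, a reader of methylated lysine on chromatin, went from 6.15, 6.10 and 5.02 CPM to 1.76, 1.99 and 2.51 CPM, a change of -1.45 (SE 0.20, edgeR adjusted p = 0.00497). ZNF141, a KRAB zinc finger protein, went from 20.7, 14.5 and 11.4 CPM to 4.43, 5.78 and 6.19 CPM, a change of -1.50 (SE 0.23, edgeR adjusted p = 0.00589). The 12 h libraries were the lower in all 3 genes. Exons of other genes on the opposite strand cover 12.5% of MAT2A and 10.4% of VAMP1. The strand setting of the counting is not given in the sources used here, so reads of a gene and of its antisense partner cannot be told apart.

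The other 4 of the 12 lower genes that the rule took were long non-coding RNAs. MIR17HG stood at 6.25, 4.41 and 1.95 CPM at 6 h and 0.237, 0.267 and 0.228 CPM at 12 h. The lowest 6 h library lay several-fold above every 12 h library, and the 12 h libraries were close to each other. The log2 fold change was -4.08 (SE 0.49, edgeR adjusted p = 0.003), and 20.5% of its exonic length lies opposite exons of other genes. The hairpins shown above lie in this transcript. SNHG4, a snoRNA host gene, went from 23.5, 22.2 and 8.66 CPM to 3.69, 3.59 and 3.88 CPM, a change of -2.28 (SE 0.30, edgeR adjusted p = 0.00395). N4BP2L2-IT2, an intronic transcript, went from 2.60, 2.72 and 1.67 CPM to 0.541, 0.474 and 0.594 CPM, a change of -2.09 (SE 0.28, edgeR adjusted p = 0.00405). KCNQ1OT1, the imprinted antisense RNA of KCNQ1, went from 10.3, 7.26 and 4.68 CPM to 1.89, 2.02 and 2.26 CPM, a change of -1.84 (SE 0.28, edgeR adjusted p = 0.00589). The groups did not overlap in any of these 4, and 6 h replicate 3 was the lowest 6 h library in each.

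MIR17HG led to a count over all genes named as miRNA hosts, a group chosen after its values were seen. Of 37 tested MIR...HG genes, 0 were called higher and 7 lower (18.9%), against 3.07% of all genes called lower and 2.96% of 2631 long non-coding RNA genes. MIR23AHG went from 71, 70.8 and 39.4 CPM to 15.1, 19 and 21.3 CPM, a change of -1.71 (SE 0.28, edgeR adjusted p = 0.00912). MIR503HG went from 1.09, 1.10 and 0.663 CPM to 0.135, 0.296 and 0.274 CPM, a change of -1.95 (SE 0.36, edgeR adjusted p = 0.0139). In neither did the groups overlap, and 6 h replicate 3 was again the lowest of its group. The other 4 were MIR600HG (-1.50), MIR34AHG (-0.97), MIRLET7A1HG (-0.80) and MIR22HG (-0.78), log2 fold changes. MIR34AHG carries the p53-induced miR-34a and MIRLET7A1HG a cluster of let-7 hairpins. Opposite-strand exons cover 27.9% of MIRLET7A1HG and 12.1% of MIR23AHG. Apart from MIR17HG, these calls were lost without 6 h replicate 2, 12 h replicate 2 or 12 h replicate 3 (highest edgeR adjusted p 0.169), and some also without 1 of the other libraries at 0, 6 or 12 h.

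Reads assigned to hairpin genes themselves were few. Of 38 tested miRNA genes 0 were called higher and 3 lower (7.89%), against 3.07% of all genes called lower. All 3 are of the miR-200 family and were chosen after their values were seen. They lie close together on the plus strand of chromosome 1, between 1167104 and 1169087, so their calls may not be independent. MIR200CHG on chromosome 12 was not called, with a log2 fold change of -0.27 (edgeR adjusted p = 0.596). MIR200B stood at 0.307, 0.422 and 0.19 CPM at 6 h and 0.0338, 0.0296 and 0.0228 CPM at 12 h, a change of -3.23 (SE 0.58, edgeR adjusted p = 0.0139). MIR200A stood at 0.512, 0.778 and 0.341 CPM at 6 h and 0, 0.148 and 0.0914 CPM at 12 h, a change of -2.61 (SE 0.61, edgeR adjusted p = 0.0343). MIR429 stood at 0.376, 0.649 and 0.284 CPM at 6 h and 0.102, 0 and 0.0685 CPM at 12 h, a change of -2.84 (SE 0.63, edgeR adjusted p = 0.0275). The libraries did not overlap, but all were under 1 CPM, and the fitted folds of genes so close to 0 depend on the prior count. All 3 calls were lost without 6 h replicate 2, 12 h replicate 2 or 12 h replicate 3, and those of MIR200A and MIR429 also without 6 h replicate 1 and others (highest edgeR adjusted p 0.139).

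Genes named SNHG or GAS5, which host small nucleolar RNAs in their introns, were counted in the same way after the values were seen. Of 26 tested, 13 had a positive and 13 a negative change. None was called higher and 6 were called lower (23.1%), against 3.07% of all genes and 2.96% of long non-coding RNA genes. Beside SNHG4 these were SNHG20 (-1.80), SNHG19 (-1.57), SNHG10 (-1.24), SNHG26 (-1.22) and SNHG3 (-1.04), log2 fold changes. SNHG3 went from 28.2, 29.5 and 17.8 CPM to 9.91, 13.5 and 13.2 CPM. SNHG4 apart, these calls were lost without 6 h replicate 2, 12 h replicate 2 or 12 h replicate 3 (highest edgeR adjusted p 0.185), and SNHG3, SNHG19 and SNHG20 also without 6 h replicate 1 or 12 h replicate 1. Those of SNHG19 and SNHG20 were lost without any normoxic library too. SNHG29, an abundant member, rose without overlap from a mean of 442 CPM to 650 CPM and was not called (edgeR adjusted p = 0.186). SNHG7, SNHG8, SNHG12, SNHG30 and SNHG32 were also higher without overlap and not called. SNHG15 and SNHG27 were lower without overlap and not called. The share of all counts in long non-coding RNA genes was 1.46%, 2.60% and 3.20% in the 6 h libraries and 1.28%, 2.18% and 1.59% in the 12 h libraries, so it overlapped. Its part in these results was not tested.

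**Figure D2:**
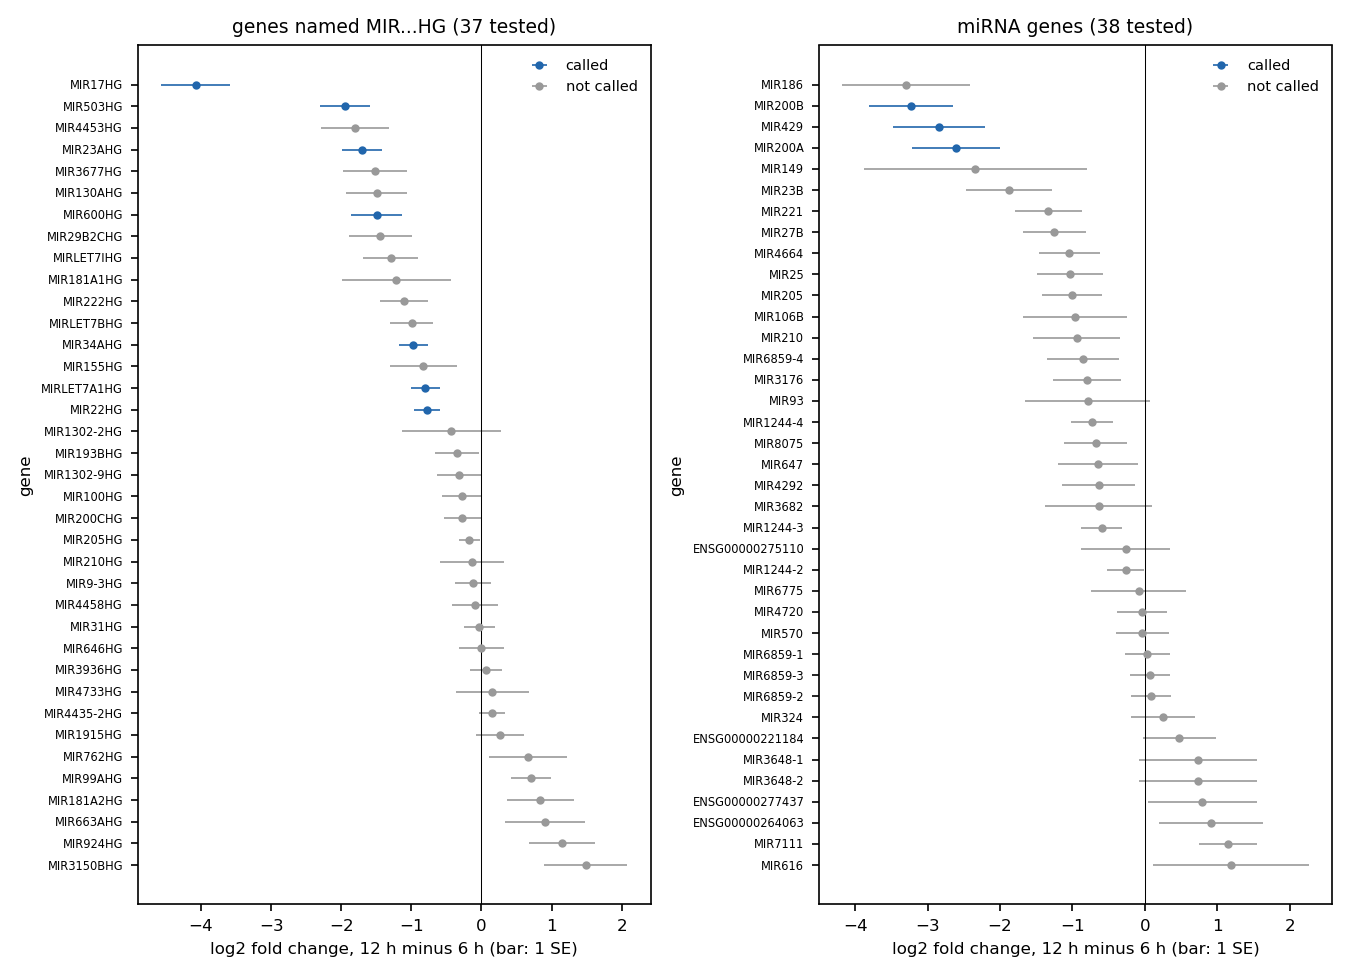
Log2 fold change of 12 h against 6 h (horizontal axis, bars 1 SE) for each tested gene named MIR...HG (left, 37 genes) and each tested miRNA gene (right, 38 genes), blue where called and grey where not. All 10 called genes lie left of 0, MIR17HG farthest among the host genes, while 10 of 37 host genes and 11 of 38 miRNA genes lie right of it.

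Among the genes called higher in every fit, the largest change was that of KCNQ5 (chr6:72621792-73198853, plus strand), a voltage-gated potassium channel. Tested genes outside the rule reached 4.98 on the log2 scale. Its levels were 2.05, 2.66 and 1.91 CPM at 6 h and 19.6, 18.7 and 14 CPM at 12 h. All 12 h libraries lay far above all 6 h libraries, and the normoxic ones lay between at 6.45, 5.41 and 6.71 CPM. The log2 fold change was 2.99 (SE 0.22, edgeR adjusted p = 0.000112). FBXO32, the ubiquitin ligase subunit atrogin-1, went from 8.88, 9.47 and 6.27 CPM to 30.2, 70.4 and 74.7 CPM, a change of 2.84 (SE 0.39, edgeR adjusted p = 0.00469). The first 12 h library was the lowest of its group, though still above every 6 h library. SEMA6D, a transmembrane semaphorin, went from 2.36, 1.36 and 2.26 CPM to 7.58, 14.4 and 17.3 CPM, a change of 2.71 (SE 0.35, edgeR adjusted p = 0.00381). SHANK2, a scaffold protein of synapses, went from 3.59, 4.48 and 3.85 CPM to 10.7, 13.6 and 11.4 CPM, a change of 1.59 (SE 0.21, edgeR adjusted p = 0.00395). Both were without overlap. MEIS1, a homeobox factor of the TALE class, went from 2.53, 2.08 and 2.84 CPM to 5.75, 8.09 and 8.09 CPM, a change of 1.55 (SE 0.20, edgeR adjusted p = 0.00395). CSRNP3, a nuclear factor of the cysteine- and serine-rich family, went from 0.478, 0.389 and 0.701 CPM to 1.83, 2.10 and 2.97 CPM, a change of 2.10 (SE 0.31, edgeR adjusted p = 0.00562). STPG1, a protein with sperm-tail PG-rich repeats, went from 3.45, 3.28 and 3.62 CPM to 11.3, 12.4 and 10.6 CPM, a change of 1.72 (SE 0.15, edgeR adjusted p = 0.000346). The libraries of each group lay close together in STPG1, and the groups were apart in all 3 genes. Opposite-strand exons cover 13.3% of MEIS1. Means at 0 h were 30.8 CPM for FBXO32, 16 for SEMA6D, 6.09 for SHANK2, 6.60 for MEIS1, 3.27 for CSRNP3 and 12.1 for STPG1. The 6 h libraries of each gene lay under its mean at 0 h. The 12 h means of SEMA6D, CSRNP3 and STPG1, 13.1, 2.30 and 11.4 CPM, were still under it. Those of FBXO32, SHANK2 and MEIS1 were above it.

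The other 5 of the 12 higher genes that the rule took were DDIT3, PPP1R15A, PPP1R10, BMF and GADD45G. DDIT3 (chr12:57516588-57521737, minus strand) encodes CHOP, a pro-apoptotic factor downstream of ATF4, and stood at 1.78, 1.82 and 1.38 CPM at 6 h and 4.43, 11.6 and 18.5 CPM at 12 h. The 12 h libraries differed among themselves and all exceeded the 6 h ones. The log2 fold change was 2.82 (SE 0.40, edgeR adjusted p = 0.00554), and the level at 0 h, 81.4, 115 and 89.1 CPM, was above both. Exons of other genes on the opposite strand cover 31.6% of DDIT3. PPP1R15A, which encodes GADD34, the phosphatase subunit that reverses the phosphorylation of eIF2 alpha, went from 20.1, 18.7 and 27.9 CPM to 83.7, 74.6 and 84.7 CPM, a change of 1.86 (SE 0.28, edgeR adjusted p = 0.00615). It was higher in every 12 h library, and the 3 were close together. PPP1R10, a nuclear regulator of the same phosphatase, went from 13.2, 17.9 and 15.4 CPM to 84.2, 74.9 and 49.2 CPM, a change of 2.16 (SE 0.22, edgeR adjusted p = 0.00102). BMF, a BH3-only protein that promotes apoptosis, went from 1.54, 1.33 and 1.63 CPM to 4.43, 8.83 and 12.9 CPM, a change of 2.54 (SE 0.33, edgeR adjusted p = 0.00381). GADD45G, a stress sensor of the GADD45 family, went from 0.649, 1.01 and 0.986 CPM to 4.84, 5.27 and 3.86 CPM, a change of 2.38 (SE 0.22, edgeR adjusted p = 0.00041). These 3 did not overlap between the times either. At 0 h PPP1R15A averaged 98.8 CPM and BMF 20.8 CPM, above all their 6 h and 12 h libraries. PPP1R10 averaged 74.6 CPM at 0 h, above its 6 h libraries and within its range at 12 h. GADD45G averaged 0.90 CPM at 0 h, near its 6 h level and under its 12 h libraries. In DDIT3 and BMF the first 12 h library was the lowest of its group.

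**Figure D3:**
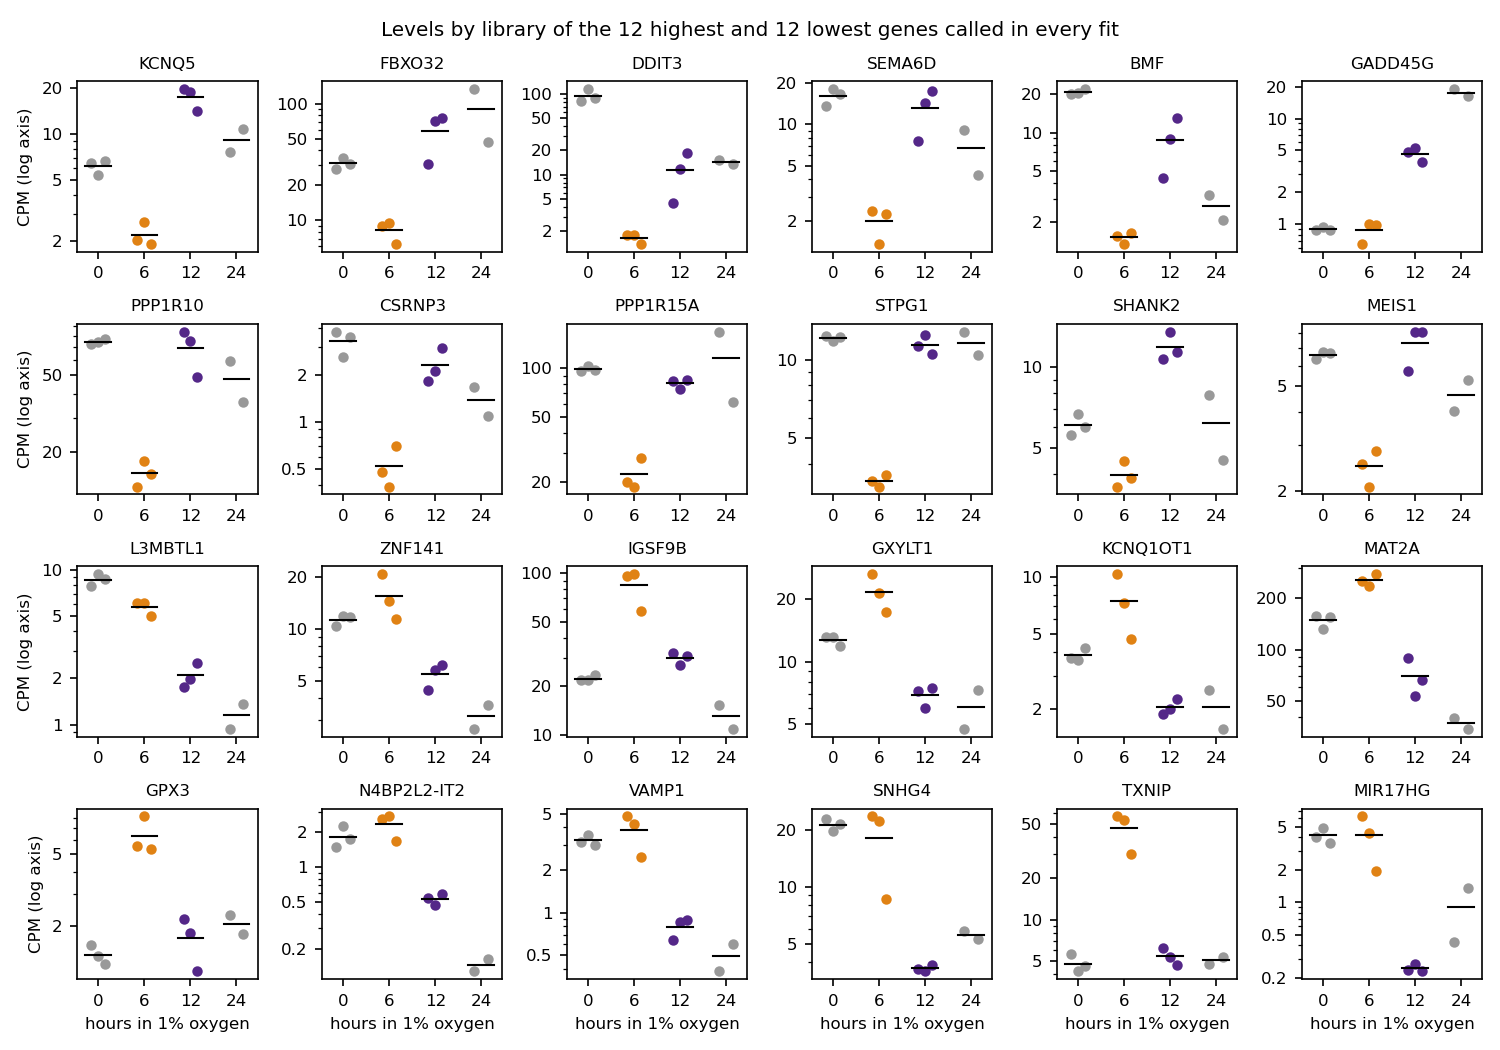
Level (CPM, log axis, a separate scale in each panel) by hours in 1% oxygen for the 12 genes with the highest and the 12 with the lowest change among those called in every fit, as the naming rule took them. Points are libraries, orange at 6 h, purple at 12 h and grey at 0 h and 24 h, and bars are group means. The 6 h and 12 h points do not overlap in any panel, since the rule required it. In TXNIP, MAT2A, GPX3, IGSF9B, GXYLT1 and KCNQ1OT1 the 6 h points lie above those of all other times.

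DDIT3 was 1 of 2 called genes among 24 of the ATF4 response, both higher (1.88% over all genes), and the list median was -0.03. The other was NUPR1, a stress-induced chromatin protein, at 37.6, 44.1 and 48.6 CPM at 6 h and 63.1, 57 and 68.9 CPM at 12 h. The groups did not overlap, the change was 0.54 (SE 0.13, edgeR adjusted p = 0.0391), and the call did not hold without any 1 of the normoxic, 6 h replicate 1 or 2, or 12 h libraries, with a highest edgeR adjusted p of 0.189. None of 19 ER chaperones was called (4.95% over all genes), 7 having a positive change and the others a negative one. Of 21 heat shock genes 1 was called, lower (3.07% over all genes). CHORDC1, a co-chaperone of HSP90, went from 178, 128 and 151 CPM to 109, 79.4 and 81.8 CPM without overlap, a change of -0.76 (SE 0.16, edgeR adjusted p = 0.0222), which was not called without 6 h replicate 1, 12 h replicate 2 or 12 h replicate 3 (highest adjusted p 0.123 in edgeR).

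Members of the HIF pathway moved in both directions. Of 12 tested regulators of HIF, 0 were called higher and 3 lower, against 1.88% and 3.07% of all genes. HIF1AN, the asparaginyl hydroxylase FIH that blocks the activity of HIF, stood at 124, 118 and 109 CPM at 6 h and 76.2, 84 and 79.5 CPM at 12 h, a change of -0.55 (SE 0.12, edgeR adjusted p = 0.0244). VHL, the ubiquitin ligase subunit that takes HIF alpha to the proteasome, stood at 13.8, 14.9 and 11.2 CPM at 6 h and 7.48, 9.01 and 8.79 CPM at 12 h, a change of -0.65 (SE 0.15, edgeR adjusted p = 0.0334). SIAH2, a ligase that degrades prolyl hydroxylases, stood at 83, 93.7 and 85.4 CPM at 6 h and 57.7, 48.1 and 52 CPM at 12 h, a change of -0.73 (SE 0.13, edgeR adjusted p = 0.0123). All 3 were lower in every 12 h library than in any 6 h library. At 12 h SIAH2 was still above its levels at 0 h, 19.9, 23.3 and 22.2 CPM. Each call did not hold without 6 h replicate 2, 12 h replicate 2 or 12 h replicate 3, and those of HIF1AN and VHL without several other libraries (highest edgeR adjusted p 0.133). Opposite-strand exons cover 23.5% of VHL.

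The alpha subunits were not called. HIF1A stood at 276, 247 and 196 CPM at 6 h and 257, 288 and 271 CPM at 12 h, a change of 0.19 (SE 0.17, edgeR adjusted p = 0.59). EPAS1, which encodes HIF-2 alpha, stood at 266, 287 and 265 CPM at 6 h and 277, 311 and 299.5 CPM at 12 h, a change of 0.12 (SE 0.13, edgeR adjusted p = 0.64) whose sign turned under library size alone (-0.03). In both genes the times overlapped. EGLN3, the prolyl hydroxylase that HIF itself induces, stood at 220.4, 220.0 and 134 CPM at 6 h and 132, 289 and 249 CPM at 12 h, a change of 0.22 (SE 0.33, edgeR adjusted p = 0.753). The first 12 h library was the lowest of the 6, and without 12 h replicate 2 the change was -0.01. At 0 h EGLN3 stood at 1.41, 3.52 and 2.74 CPM, far under all 6 libraries compared.

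Of 22 genes of glycolysis and glucose transport 1 was called, higher (1.88% over all genes), although 20 had a positive change and 12 did not overlap in that direction, against 15.9% of all genes. The list median was 0.36, and 0.21 under library size alone. PFKP, the platelet isoform of phosphofructokinase, stood at 219, 259.7 and 238 CPM at 6 h and 336, 333 and 336 CPM at 12 h. The 12 h libraries were nearly equal and above all of 6 h. The change was 0.49 (SE 0.13, edgeR adjusted p = 0.0485), and it lost its call without any 1 of the 0 h, 6 h and 12 h libraries, with a highest edgeR adjusted p of 0.178. SLC2A1, the glucose transporter GLUT1, stood at 1767, 1759.6 and 1384 CPM at 6 h and 1864, 2773 and 2678 CPM at 12 h, a change of 0.57 (SE 0.20, edgeR adjusted p = 0.117) that was not called. SLC2A3, the transporter GLUT3, stood at 43.6, 38.4 and 50.4 CPM at 6 h and 60.1, 59.4 and 56.2 CPM at 12 h, a change of 0.41 (SE 0.18, edgeR adjusted p = 0.224) that was not called either. The 12 h libraries of both were above those of 6 h, in SLC2A1 by little in the first. Levels at 0 h were 441, 466 and 520.2 CPM for SLC2A1 and 2.43, 2.24 and 2.77 CPM for SLC2A3. HK2, a hexokinase singled out after its values were seen as the highest of the list, stood at 618, 583 and 543 CPM at 6 h and 619, 1005 and 1202 CPM at 12 h, a change of 0.70 (SE 0.27, edgeR adjusted p = 0.164).

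Among 40 other HIF targets 1 was called higher and 1 lower, against 1.88% and 3.07% of all genes, with a median of 0.21. EFNA1, a ligand of Eph receptors, stood at 127, 137 and 102 CPM at 6 h and 193, 235 and 236 CPM at 12 h, a change of 0.86 (SE 0.15, edgeR adjusted p = 0.0114). CCNG2, an atypical cyclin that slows the cell cycle, stood at 51.9, 49.98 and 33.4 CPM at 6 h and 22.4, 28.8 and 28.9 CPM at 12 h, a change of -0.75 (SE 0.18, edgeR adjusted p = 0.0374). Neither overlapped. EFNA1 lost its call without 12 h replicates 2 or 3 (highest edgeR adjusted p 0.0746), and CCNG2 without any 1 library at 0 h or 12 h or 6 h replicates 1 and 2 (highest 0.141). CA9, the surface carbonic anhydrase that is a classic HIF-1 target, stood at 7.35, 8.21 and 4.83 CPM at 6 h and 8.52, 19.6 and 19.5 CPM at 12 h, a change of 1.24 (SE 0.33, edgeR adjusted p = 0.0523) that just missed the threshold. Opposite-strand exons cover 35.7% of CA9. Its first 12 h library lay next to the 6 h range and the other 2 well above it. VEGFA, the angiogenic growth factor, stood at 336, 384 and 329 CPM at 6 h and 387, 439 and 382 CPM at 12 h, a change of 0.20 (SE 0.24, edgeR adjusted p = 0.677) with overlap and no call.

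The clock list held 5 called genes. Of 18 tested, 3 were higher and 2 lower, against 1.88% and 3.07% of all genes, with a median of -0.01. BHLHE40 and BHLHE41 encode the repressors DEC1 and DEC2, which HIF can induce. BHLHE40 stood at 168, 114 and 191 CPM at 6 h and 263, 339.6 and 405 CPM at 12 h, a change of 1.09 (SE 0.22, edgeR adjusted p = 0.0192). BHLHE41 stood at 3.86, 3.24 and 3.24 CPM at 6 h and 5.41, 9.04 and 12 CPM at 12 h, a change of 1.36 (SE 0.25, edgeR adjusted p = 0.0129). In both the 12 h libraries were all above the 6 h ones, and for BHLHE41 the 6 h level was under that at 0 h, 8.80, 7.89 and 7.29 CPM. Opposite-strand exons cover 12.8% of BHLHE40. NFIL3, a repressor of D-box genes, stood at 56.2, 48.9 and 60.9 CPM at 6 h and 72.7, 99 and 133 CPM at 12 h, a change of 0.88 (SE 0.19, edgeR adjusted p = 0.0264). CRY1, a core repressor of CLOCK and BMAL1, stood at 72.8, 60.1 and 44.4 CPM at 6 h and 31.6, 38.9 and 31.3 CPM at 12 h, a change of -0.80 (SE 0.19, edgeR adjusted p = 0.0363). NR1D2, the nuclear receptor REV-ERB beta, stood at 45.5, 38.2 and 21.3 CPM at 6 h and 17.3, 18.8 and 17.2 CPM at 12 h, a change of -0.97 (SE 0.24, edgeR adjusted p = 0.0394). None of these overlapped, though the third 6 h library of NR1D2 lay close to 12 h. All 5 calls were lost without 6 h replicate 2, 12 h replicate 2 or 12 h replicate 3, and all but that of BHLHE41 without 6 h replicate 1 (highest edgeR adjusted p over these fits 0.16). CRY1 and NR1D2 also lost theirs without 12 h replicate 1 or normoxia replicates 1 or 3, NR1D2 without normoxia replicate 2 and NFIL3 without normoxia replicate 3. The box CACGTG, to which CLOCK, BMAL1 and the DEC proteins bind, stood in a promoter window of 6 of 18 listed clock genes, against 7.73% of 27305 genes. These 6 were BHLHE40, BHLHE41 and NR1D2, and also PER1, TEF and CIART, which were not called. The called CRY1 and NFIL3 were not among them.

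Of 23 EGFR ligands and ERK feedback genes 1 was called higher and 3 lower, against 1.88% and 3.07% of all genes, with a median of -0.37, and 5 had a positive change. EGFR, the receptor for the EGF in the medium, stood at 227, 273 and 221 CPM at 6 h and 424, 521 and 495 CPM at 12 h, a change of 1.00 (SE 0.19, edgeR adjusted p = 0.0162). The 12 h libraries lay nearer to those at 0 h, which stood at 482, 515 and 496 CPM. SPRED1, an inhibitor of RAS and RAF signalling, stood at 32.7, 32.7 and 29.8 CPM at 6 h and 16.3, 12.6 and 12.5 CPM at 12 h, a change of -1.20 (SE 0.18, edgeR adjusted p = 0.00556). DUSP7, a phosphatase of ERK, stood at 164, 165 and 164 CPM at 6 h and 91.2, 72.2 and 80.4 CPM at 12 h, a change of -1.02 (SE 0.15, edgeR adjusted p = 0.00562). ETV5, an ETS factor induced by ERK, stood at 16, 17.9 and 15.4 CPM at 6 h and 11.1, 9.57 and 8.73 CPM at 12 h, a change of -0.75 (SE 0.15, edgeR adjusted p = 0.0196). The groups were apart in all 4, and the 6 h libraries of DUSP7 were nearly equal. All 4 calls were lost without 12 h replicate 3, and those of EGFR and ETV5 without 12 h replicate 2 or 6 h replicates 1 or 2 (highest edgeR adjusted p 0.116). The list median was -0.11 without 6 h replicate 3 and -0.52 without 12 h replicate 1.

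Of 29 immediate early genes 1 was called higher and 2 lower (1.88% and 3.07% over all genes), with a median of -0.32 that was -0.08 without 6 h replicate 3. IER3, a stress-induced survival gene, stood at 35.9, 42.5 and 47.8 CPM at 6 h and 102, 89.3 and 76.9 CPM at 12 h, a change of 1.09 (SE 0.16, edgeR adjusted p = 0.00562), called in every fit without 1 library. Opposite-strand exons cover 38.9% of it. SRF, the factor behind serum response elements, stood at 61.9, 75.8 and 59.3 CPM at 6 h and 36.3, 34.9 and 33.2 CPM at 12 h, a change of -0.92 (SE 0.13, edgeR adjusted p = 0.00556). BTG2, an antiproliferative gene that p53 also induces, stood at 70.5, 81.4 and 44.6 CPM at 6 h and 22, 33.3 and 27.8 CPM at 12 h, a change of -1.24 (SE 0.21, edgeR adjusted p = 0.0102). All 3 were without overlap. SRF lost its call without 12 h replicate 3, and BTG2 without that library or 6 h replicate 2 (highest edgeR adjusted p 0.0658). Among 24 p53 targets BTG2 and TNFRSF10B, a death receptor for TRAIL, were lower (3.07% over all genes) and GADD45A higher (1.88% over all genes). The list median was -0.20. Without overlap 10 members were lower and 5 higher, against 15.7% and 15.9% of all genes. TNFRSF10B went from 109.6, 107 and 100.2 CPM to 71.5, 74.4 and 65.2 CPM, a change of -0.58 (SE 0.12, edgeR adjusted p = 0.0192), and GADD45A, a stress gene of growth arrest, from 18, 16.3 and 21.8 CPM to 34, 31.8 and 35 CPM, a change of 0.84 (SE 0.15, edgeR adjusted p = 0.0107). Neither overlapped, and both lost their calls without 6 h replicate 2, 12 h replicate 2 or 12 h replicate 3 (highest edgeR adjusted p 0.114), TNFRSF10B also without 6 h replicate 1. At 12 h GADD45A was still under its levels at 0 h, 51.9, 51.1 and 49.4 CPM.

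Of 79 ribosomal protein genes, 78 had a positive change and 70 did not overlap in the higher direction, against 15.9% of all genes. However, 0 of them were called (4.95% over all genes), and the median was 0.57. The median was 0.41 under library size alone and 0.41 to 0.65 with 1 library left out. RPL26, singled out after its values were seen as the highest, stood at 514, 358 and 440.1 CPM at 6 h and 993, 596 and 747 CPM at 12 h, a change of 0.83 (SE 0.32, edgeR adjusted p = 0.153). The first 12 h library was the highest. The share of all counts in ribosomal protein genes was 7.42%, 7.55% and 8.77% at 6 h and 12.1%, 9.61% and 10.1% at 12 h. It was 15.8% and 25.3% at 24 h, and those 2 libraries enter the spread that the test uses. Leaving out the 24 h libraries altogether, an alternative chosen after the data were seen, gave 3676 called genes in place of 989. Of 39 ribosome biogenesis genes 0 were called (4.95% over all genes), and the median was -0.10. Many ribosomal protein genes have near-identical processed pseudogenes that can share their reads, so their counts are uncertain, and pseudogenes held 8.71% to 9.88% of counts at 6 h and 10.2% to 12.4% at 12 h.

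Of 30 tested histone genes among 53 of the replication-dependent class, 28 had a positive change, 3 were called higher and 1 lower (1.88% and 3.07% over all genes), with a median of 0.91. The list did not move in 1 step with time, since its median centred level was -0.33, -0.46 and -0.39 in the 6 h libraries and -0.61, 0.65 and 0.85 in the 12 h libraries. The first 12 h library was thus below all 6 h libraries. H2BC11 stood at 2.53, 2.63 and 2.07 CPM at 6 h and 2.60, 12.3 and 14 CPM at 12 h, a change of 2.02 (SE 0.47, edgeR adjusted p = 0.0324), and H2BC7 at 0.342, 0.292 and 0.265 CPM at 6 h and 0.304, 1.36 and 2.01 CPM at 12 h, a change of 2.07 (SE 0.52, edgeR adjusted p = 0.0421). Both overlapped through that library. H2BC5 went from 21.9, 22.2 and 23.9 CPM to 35.3, 46.5 and 46.2 CPM, a change of 0.91 (SE 0.18, edgeR adjusted p = 0.0195), and H2BC9 the other way from 6.49, 3.54 and 2.88 CPM to 0.947, 1.42 and 1.67 CPM, a change of -1.65 (SE 0.32, edgeR adjusted p = 0.0176), both without overlap. All 4 encode histone H2B, are near-identical in their coding parts and can share reads, so the split between them is uncertain. Their calls were lost without 6 h replicates 1 or 2 or 12 h replicates 2 or 3 (highest edgeR adjusted p 0.211), and those of H2BC7 and H2BC11 also without 6 h replicate 3 or any normoxic library.

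Cell-cycle genes differed between libraries of the same time. None of 28 G2/M genes was called (4.95% over all genes). Their median centred level was 0.46, 0.42 and -0.82 in the 6 h libraries and -0.39, 0.32 and 0.13 in the 12 h libraries, so 6 h replicate 3 and 12 h replicate 1 were both low. CCNB1, the mitotic cyclin B1, named after its values were seen, stood at 92.3, 107 and 43.3 CPM at 6 h and 48.5, 74.6 and 63.6 CPM at 12 h. The list median of -0.12 was -0.38 without 6 h replicate 3 and 0.10 without 12 h replicate 1. Of 29 G1/S genes 1 was called, higher (1.88% over all genes). CDT1, which licenses replication origins, stood at 25.2, 38.6 and 35 CPM at 6 h and 51.7, 66 and 58.4 CPM at 12 h without overlap, a change of 0.83 (SE 0.18, edgeR adjusted p = 0.0224), and lost its call without 6 h replicates 1 or 2 or 12 h replicates 2 or 3 (highest edgeR adjusted p 0.104). Over the tested genes, 6 h replicate 3 was also the 6 h library nearest to 12 h, at -12.1 on the first principal component (41.2% of variance) against -46.6 and -38.8 for the other 2, the 12 h libraries being at 30.9 to 33.4.

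**Figure D4:**
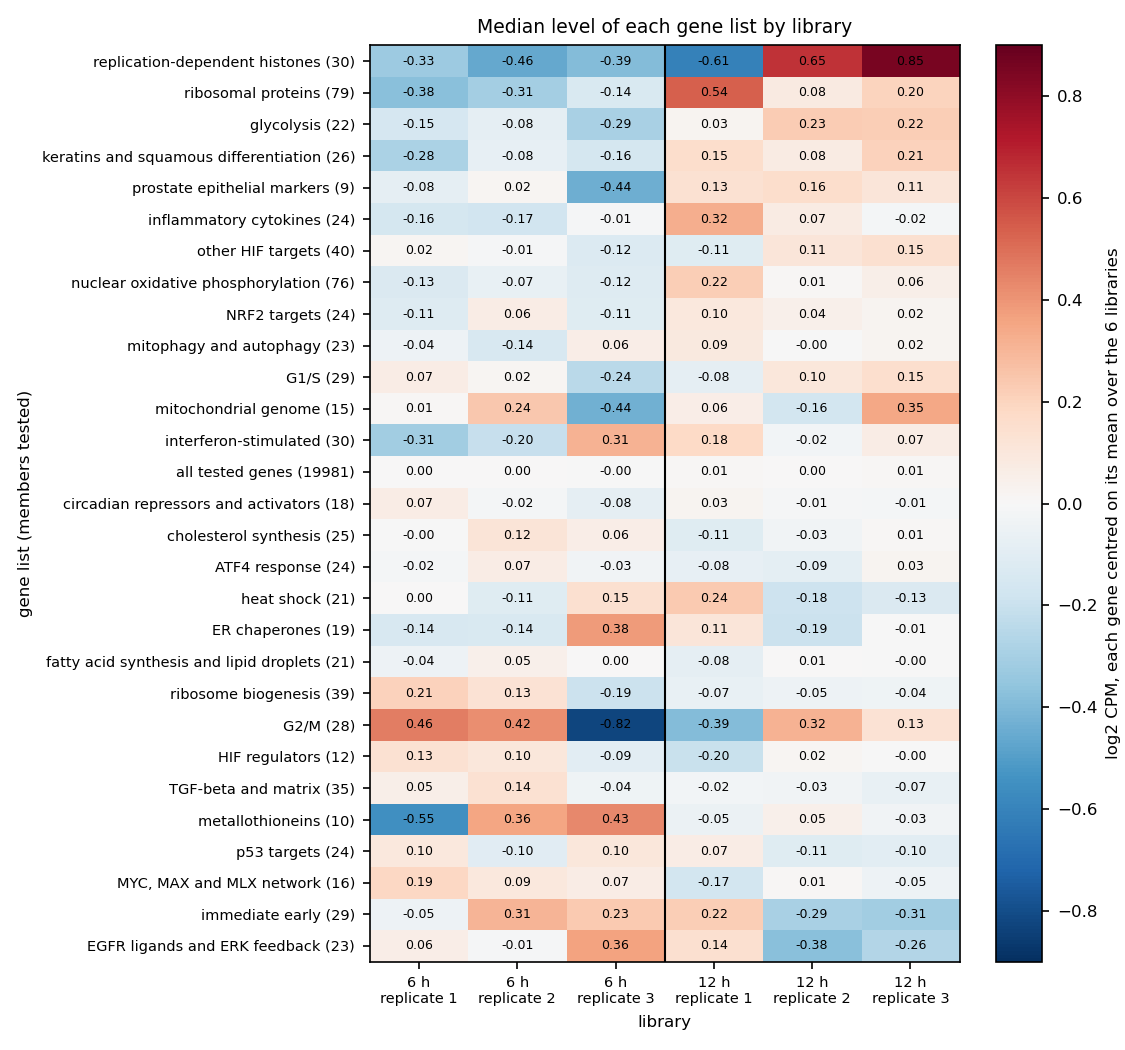
Median over the tested members of each gene list (rows, number tested in brackets) of log2 CPM centred on each gene's mean over the 6 libraries (columns), red above and blue below that mean, rows in order of the median change from 6 h to 12 h. Ribosomal proteins and glycolysis are higher in every 12 h library than in any 6 h library, whereas the histones are low in 12 h replicate 1 and the G2/M genes in 6 h replicate 3.

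Transcripts of the mitochondrial genome gave 1 call among 15, lower (3.07% over all genes). MT-ND3, a subunit of complex I, stood at 676, 778 and 593 CPM at 6 h and 344, 410.4 and 495 CPM at 12 h, a change of -0.71 (SE 0.17, edgeR adjusted p = 0.0328). The groups were apart, and the call did not hold without any 1 library at 0 h or 12 h or 6 h replicates 1 or 2 (highest edgeR adjusted p 0.135). It went against most of its list, in which 10 members had a positive change, with a median of 0.11 (-0.04 under library size alone). MT-ND4, another complex I subunit and the highest of the list, was named after its values were seen and stood at 5303, 5379.6 and 4278 CPM at 6 h and 8323, 6801 and 11422 CPM at 12 h, a change of 0.83 (SE 0.36, edgeR adjusted p = 0.21). All mitochondrial genes together took 4.30% to 5.27% of counts at 6 h and 4.78% to 6.78% at 12 h. Of 76 nuclear genes of oxidative phosphorylation 0 were called (4.95% over all genes), and 64 had a positive change. Without overlap 34 were higher and 2 lower, against 15.9% and 15.7% of all genes. Their median was 0.18 (0.03 under library size alone). None of 23 mitophagy and autophagy genes was called (4.95% over all genes).

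Of 26 keratins and squamous differentiation genes 23 had a positive change and 13 did not overlap in that direction, against 15.9% of all genes, with a median of 0.32 (0.17 under library size alone). Of the 26, 1 was called, higher, where 1.88% of all genes were. TP63, the basal epithelial factor p63, stood at 83.3, 67 and 70.2 CPM at 6 h and 105, 127 and 143 CPM at 12 h, a change of 0.77 (SE 0.16, edgeR adjusted p = 0.0205). The groups were apart, both stood far under the 0 h level of 259, 218 and 248 CPM, and the call did not hold without 6 h replicate 2 or 12 h replicates 2 or 3 (highest edgeR adjusted p 0.114). Among 35 TGF-beta and matrix genes ID3, an inhibitor of bHLH factors, was higher (1.88% over all genes). SKI, a corepressor of SMADs, was lower (3.07% over all genes). ID3 went from 23.7, 23 and 16.4 CPM to 29.8, 62.9 and 68.8 CPM, a change of 1.36 (SE 0.34, edgeR adjusted p = 0.0392). SKI went from 126, 170.2 and 116 CPM to 61.1, 70.5 and 69.1 CPM, a change of -1.04 (SE 0.15, edgeR adjusted p = 0.00556). Neither overlapped. SKI was called in every fit without 1 library, and ID3 lost its call without any 1 library at 0 h or 6 h or 12 h replicates 2 or 3 (highest edgeR adjusted p 0.166).

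Of 24 inflammatory and 30 interferon genes tested, 2 each were called, all higher, against 1.88% of all genes. PTGS2, the inducible cyclooxygenase COX-2, stood at 1.64, 1.01 and 1.46 CPM at 6 h and 12.9, 6.93 and 4.59 CPM at 12 h, a change of 2.56 (SE 0.59, edgeR adjusted p = 0.0303). All 12 h libraries were above all 6 h ones, the first being the highest. IL1RN, the antagonist of the IL-1 receptor, stood at 73.7, 73.2 and 66.1 CPM at 6 h and 103, 121 and 112 CPM at 12 h, a change of 0.66 (SE 0.14, edgeR adjusted p = 0.0199). The median of the inflammatory list was 0.21. IFIT2 and IFIT3 encode neighbouring interferon-induced proteins. IFIT2 stood at 2.46, 1.26 and 2.69 CPM at 6 h and 3.52, 7.26 and 6.85 CPM at 12 h, a change of 1.45 (SE 0.32, edgeR adjusted p = 0.0249). IFIT3 stood at 3.66, 2.98 and 5.38 CPM at 6 h and 5.34, 10.2 and 8.79 CPM at 12 h, a change of 1.01 (SE 0.25, edgeR adjusted p = 0.0401), and here the lowest 12 h library lay just under the highest 6 h library. Levels at 0 h were 14.8, 12.6 and 14.9 CPM for IFIT2 and 15.9, 16.8 and 15.7 CPM for IFIT3, above all their 6 h and 12 h libraries. The median of the interferon list was 0.02 (-0.13 under library size alone). The 4 calls were lost without 6 h replicates 1 or 2 or 12 h replicates 2 or 3 (highest edgeR adjusted p 0.166), and that of PTGS2 without any 1 library at 0, 6 or 12 h, while IFIT3 lost it without any normoxic one as well.

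Redox and lipid lists held single calls, all lower, where 3.07% of all genes were. The list medians were 0.15 for NRF2 targets, -0.19 for metallothioneins and zinc genes, and -0.02 for cholesterol synthesis. Of the 24 NRF2 targets 15 had a positive change and 9 a negative one. Of 24 NRF2 targets TXNRD1, thioredoxin reductase, was lower, at 315, 278 and 276 CPM at 6 h and 177, 195 and 187 CPM at 12 h, a change of -0.64 (SE 0.12, edgeR adjusted p = 0.0184). Of 10 metallothioneins and zinc genes SLC30A1, the zinc exporter ZnT1, was lower, at 49.8, 44.5 and 42.5 CPM at 6 h and 23.4, 24.3 and 24.2 CPM at 12 h, a change of -0.93 (SE 0.16, edgeR adjusted p = 0.0102). Of 25 cholesterol synthesis genes LSS, lanosterol synthase, was lower, at 135, 160.5 and 170.3 CPM at 6 h and 99.7, 103 and 103 CPM at 12 h, a change of -0.61 (SE 0.14, edgeR adjusted p = 0.0278). Each of the 3 was lower in every 12 h library than in any 6 h library. Their calls were lost without 12 h replicates 2 or 3 (highest edgeR adjusted p 0.101 for TXNRD1, 0.0663 for SLC30A1 and 0.123 for LSS), that of TXNRD1 also without 6 h replicates 1 or 2, and that of LSS also without 6 h replicates 2 or 3, 12 h replicate 1 or any normoxic library. None of 21 fatty acid synthesis genes was called (4.95% over all genes).

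**Figure D5:**
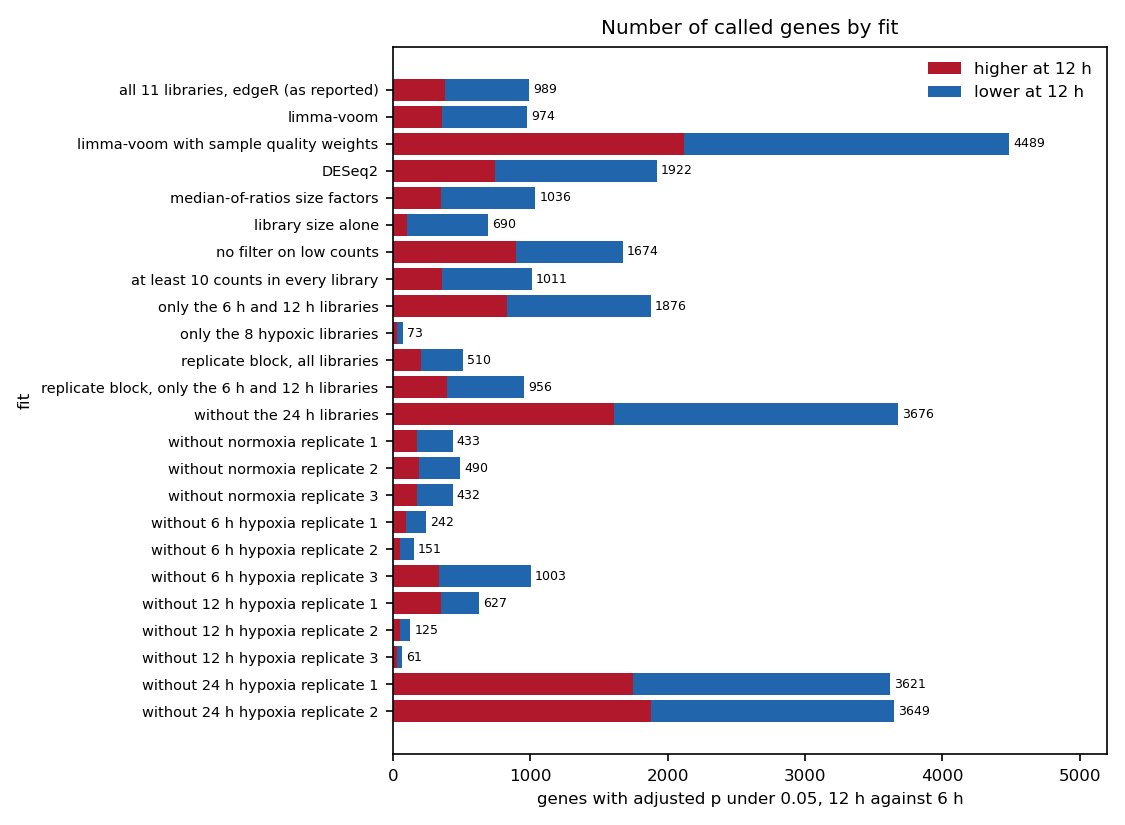
Number of genes called at 12 h against 6 h (horizontal axis, adjusted p under 0.05) in each fit (rows), red for higher and blue for lower at 12 h. The fit reported here gave 989, leaving out 12 h replicate 3 gave 61, and leaving out a 24 h library gave 3621 or 3649.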

How the data were processed

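Per the labels and the methods, RNA over 200 nucleotides was treated with DNase, built into 12 stranded libraries in 1 batch and read as 75-cycle single ends. The authors trimmed the reads with Trimmomatic, aligned them with STAR to GRCh38 (named hg38 in the submitters' processing notes, which also list FastQC and DESeq2) and counted them per gene with featureCounts. The deposited values are raw counts, neither filtered nor normalized. The strand setting and the handling of reads with several matches are not given in the sources used here. Of the 12 libraries 11 were analysed here, and the third from 24 h was not used here. Every count column matched 1 sample, and 0 were left over.

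From those counts, filterByExpr, with time as the grouping, a minimum count of 10 and a minimum total of 15, kept 19981 genes. edgeR's quasi-likelihood test (glmQLFit and glmQLFTest) was fitted to all 11 libraries with TMM factors and the time as the only factor, and 12 h was contrasted with 6 h. The biological coefficient of variation was 19.6%. The SE of a log2 fold change was taken as its size divided by the root of F. Benjamini-Hochberg adjustment ran over all tested genes. An exact permutation test of 3 values against 3 cannot reach below p = 0.1, so none was used. Libraries held 27496009 to 49488345 counts. With 3 libraries a side the spread between them limits the precision, and for genes with few reads, such as the miR-200 genes and MIR17HG, counting error does so too.

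The comparison, the gene lists and the rule were chosen with earlier results of these data known. The rule took genes that have a symbol, average 1 CPM or more, show no overlap between the times and were called in the full fit, those called in each fit without 1 library first, 12 in each direction. It also named up to 4 called members per list and direction, and SLC2A3, SLC2A1, CA9, HIF1A, EPAS1, EGLN3, VEGFA and MYC. Of the 31 lists, each was described by its counts and median and none was tested as a set. Listed levels at 0 h and 24 h were not tested.

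Replicate numbers are shared between times in the labels, so whether they pair the libraries was checked. Deviations of same-numbered 6 h and 12 h libraries correlated across genes at -0.156, 0.207 and -0.107. With so few libraries this check cannot decide whether they are pairs, and the reported fit did not treat them as such. Gene positions and opposite-strand exons came from GENCODE release 44 on GRCh38, in which 60357 of 60676 identifiers were found. Alternatives changed the test, the scaling, the filter, the libraries fitted and the replicate block, and left out each library. The scripts were tested on simulated data. The tools were edgeR 4.0.16, DESeq2 1.42.0 and limma 3.58.1 in R 4.3.3, and Python 3.11.15.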

Additional observations from a re-analysis of the deposited data

How the results depend on the processing

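The 989 genes called at 12 h against 6 h (376 higher, 613 lower) became 4489 (2117 and 2372) with limma-voom with sample quality weights and 1922 (740 and 1182) with DESeq2. They became 1876 (831 and 1045) in a fit of only the 6 h and 12 h libraries, 73 (24 and 49) in a fit of only the 8 hypoxic libraries, and 3676 (1605 and 2071) without the 24 h libraries, the last chosen after the data were seen. Without a filter on low counts there were 1674, of which 891 were higher (53.2%), and with library size alone 99 were higher. Leaving out 1 of the 11 libraries gave 61 to 3649 calls, 25 to 1875 higher and 36 to 1874 lower. Counts changed by less than 1.5 times with limma-voom, median-of-ratios factors or a filter of 10 counts in every library. The cause of these differences was not tested.

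Whether the replicate numbers pair the libraries stayed undecided. The same-numbered 6 h and 12 h libraries correlated over 0.1 in replicate 2 and below 0 in the other 2, too few libraries to tell. With the replicate block in a fit of all libraries 510 genes were called (203 higher, 307 lower), and with the block in a fit of only the 6 h and 12 h libraries 956 (393 higher, 563 lower). Of 3 fits without 1 library at 12 h, 1 moved the split of calls by over 10 percentage points, to 55.8% higher without 12 h replicate 1, and so did those without 24 h replicate 1 (48.2%) and 2 (51.4%). Of the 79 called genes named, 72 remained called with limma-voom, 78 with DESeq2, 59 with library size alone, 29 in the 8 hypoxic libraries and 26 without 12 h replicate 3, and none turned direction in any of these. The log2 fold change of EPAS1, not called, turned to -0.0278 with library size alone, and that of EGLN3, not called, ran from -0.01 without 12 h replicate 2 to 0.49 without 12 h replicate 1. Medians of the G1/S, NRF2, mitochondrial genome, mitophagy and interferon lists turned negative with library size alone (lowest -0.13). Depth limits genes where they are under 1 CPM, as the miR-200 genes are at both times and H2BC7 is at 6 h and in 12 h replicate 1.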
